A study of Drosophila melanogaster with 19 samples.

Results

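The nuclear transcriptome of *Drosophila* outer photoreceptors at day 20 of adult life (D20) was compared with that of flies kept in a light:dark cycle (LD). The comparison used the 3 D20 libraries and the 2 LD libraries, 5 of the 19 libraries in the series, which share 1 count table with 2 libraries from constant darkness (DD). It was carried out over genes that passed an expression filter and had at least 1 read count in all 5 libraries, which left 5540 of the 13929 genes in the table. The other 12 libraries form an age series from day 30 to day 60 in a separate count table and are used here only to give levels. All flies were males that expressed a GFP-tagged Msp300 KASH domain, which anchors in the outer nuclear membrane, from UAS-GFP-Msp300KASH at attP2 under rh1-GAL4, in a w and ry mutant background. The rh1 promoter is active in the outer photoreceptors only, so the tag marks their nuclei, and nuclei were pulled out of lysates of frozen heads with an antibody. Each library came from its own pool of flies. Both groups were raised at 25 °C, and the labels describe a 12:12 h light:dark cycle with collection 6 h after lights on. The same description stands at the D20 and LD samples alike, and no separate collection time is given for LD. The labels give no age for LD. The headings of its count columns read day 10, whereas its sample titles do not. Age, depth and any difference in rearing or collection go together with the groups in this comparison and cannot be told apart.

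In the fly eye, each unit of the compound eye holds outer photoreceptors that express Rhodopsin 1, encoded by *ninaE*, and inner photoreceptors that express other rhodopsins. Light-activated rhodopsin signals through a Gq protein and phospholipase C to open the TRP and TRPL channels. Photoreceptors also carry a circadian clock, in which Clock and Cycle activate *per*, *tim*, *vri*, *Pdp1* and *cwo*. The transcripts of *per* and *tim* are known to peak around the early night in a light:dark cycle, whereas *Clk* RNA cycles in the opposite phase.

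The D20 libraries held between 4525799 and 5100377 counts and detected between 9970 and 11100 genes. The LD libraries were deeper but detected fewer genes, with 6002 genes from 16686942 counts in replicate 1 and 8259 genes from 19704692 counts in replicate 2. At an equal depth of 4525799 counts, the D20 libraries still held 9949 to 11100 genes and the LD libraries 5751 and 8049. The 3 D20 replicates lay close together, with a Pearson correlation of log2 CPM (counts in every 1000000) across the tested genes between 0.987 and 0.989. The LD pair correlated at only 0.752, and the DD pair at 0.905. These correlations are across genes, which are not independent replicates. A total of 1992 genes (36.0%) differed by more than 2-fold between the LD libraries, against 3.05 to 3.92% for pairs of D20 libraries. The spread between the LD libraries depended on the level of a gene. The SD of the log2 ratio of LD replicate 1 to 2 was 3.53 in the lowest eighth of the tested genes and 0.398 in the highest, and the matching values for D20 replicates 1 and 2 were 0.842 and 0.195. Values of the main genes are therefore given for every library, as CPM of the library total scaled by TMM (a scaling that assumes most genes do not change), and other genes by their log2 fold change.

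**Figure D1:**
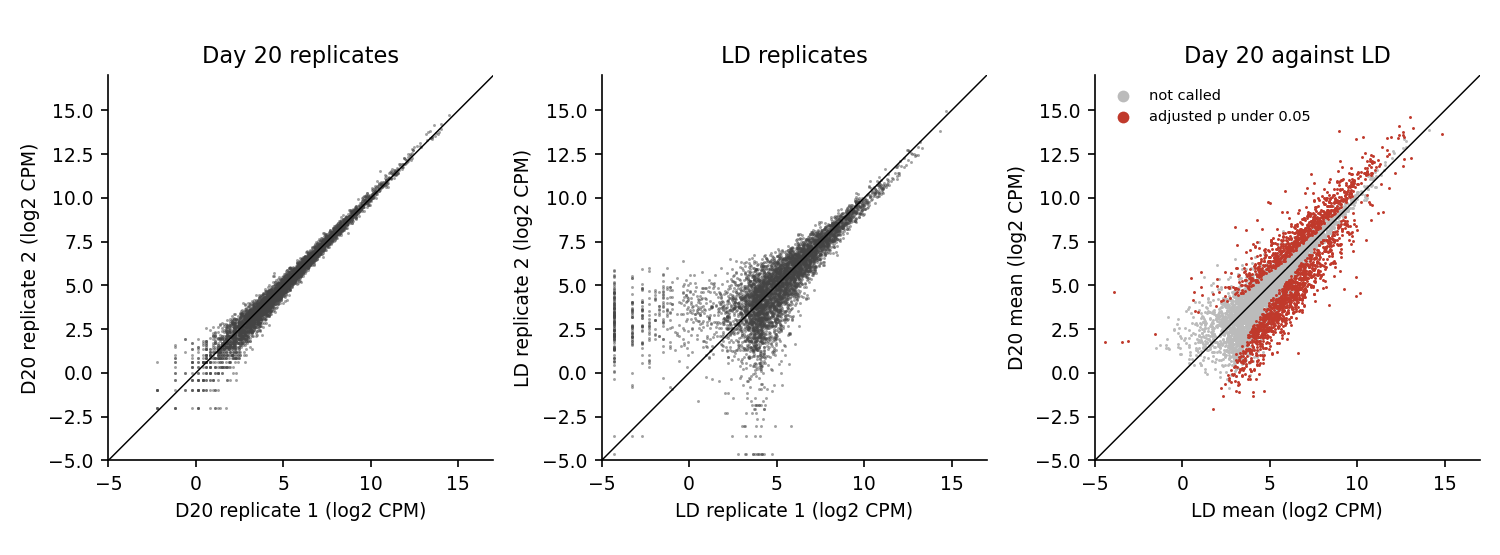
Log2 CPM of the 5540 tested genes for D20 replicate 2 against replicate 1, LD replicate 2 against replicate 1, and the D20 mean against the LD mean; each point is a gene, the line marks equality, and red points were called at an adjusted p under 0.05. The D20 pair follows the line (r between 0.987 and 0.989 over the 3 D20 pairs), whereas the LD pair fans out below about the middle of the range (r = 0.752).

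Between D20 and LD, 1892 of 5540 genes (34.2%) were called at an adjusted p under 0.05 (edgeR quasi-likelihood F-test with Benjamini-Hochberg adjustment). Of these, 824 (14.9% of the genes tested) were higher at D20 and 1068 (19.3%) were lower. The median log2 fold change of all tested genes was -0.14, and the central 80% of genes lay between -1.97 and 1.25. In 3494 genes (63.1%) the groups did not overlap, with all D20 libraries above both LD libraries in 1663 (30% of those tested) and below both in 1831 (33.1%). A total of 1891 genes (34.1%) were called and did not overlap, and 1817 (32.8%) were called with a change over 1.5-fold. All 1892 called genes moved in the same direction against each LD library taken alone, and over all tested genes 4020 (72.6%) did. The calls were made from these same LD libraries, and groups that do not overlap must share a direction. The agreement among the called genes is therefore no independent support. Calls were more frequent among abundant genes, with 17.3% called in the lowest eighth of the tested genes by level and 60.5% in the highest, where 47.3% were called higher and 13.1% lower (median log2 fold change 0.48). The demand for a count in every library left out 2229 genes, 2091 of them at 0 in LD replicate 1 and 22 at 0 in a D20 library, so genes at 0 in an LD library and detected at D20 were removed before the test. The balance of directions among the genes of low level is therefore set in part by this demand. Without it the median over 7769 genes was 0.15 and 57.8% of 1854 calls were higher. The balance of directions also depended on the scaling. Scaled by library size only, the overall median was -0.60 and 19.9% of 2309 calls were higher at D20, against 43.6% with TMM. The test assumes 1 spread for both groups, whereas the biological coefficient of variation was 0.0840 within D20 and 0.742 within LD. With sample weights that let the LD libraries vary more (limma voom), 1421 genes were called. Without D20 replicate 1, 2 or 3 the count was 997, 975 or 911. Without LD replicate 1 or 2 it rose to 5375 or 4517, where the lone LD library is assumed to vary as little as the D20 libraries.

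**Figure D2:**
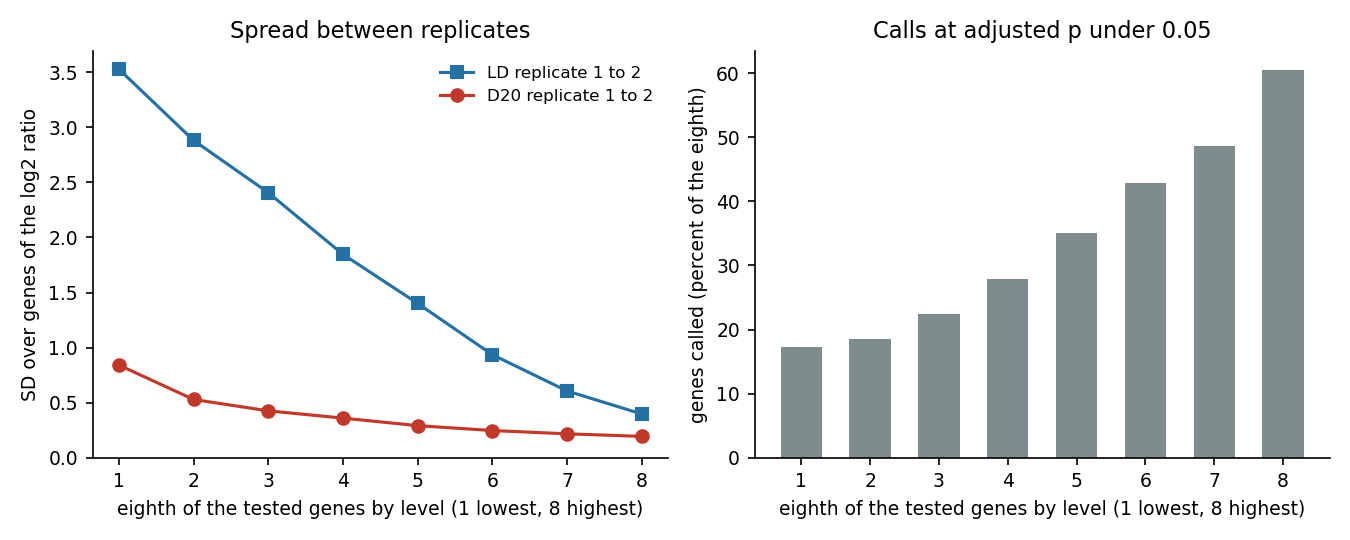
Left, the SD over genes of the log2 ratio between LD replicates 1 and 2 and between D20 replicates 1 and 2, by eighth of the tested genes ordered by their level over both groups. Right, the percent of genes in each eighth called in either direction; the LD spread falls from 3.53 to 0.398 while the share called rises from 17.3% to 60.5%.

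Core clock genes made up 4 of the 10 largest increases chosen by the rule for named genes, namely *tim*, *per*, *cwo* and *vri*. Of the 7 core clock genes, all of which were tested, 5 were higher at D20, *Clk* was lower and *cyc* did not pass the test, with a median log2 fold change of 3.48 against -0.14 for all genes. Over all genes tested, 14.9% were called higher and 19.3% lower. In the highest eighth by level, which held 4 of the 7, 47.3% were called higher and 13.1% lower (median 0.48). *tim* (chromosome 2L, 3493986 to 3508119 in BDGP6), whose protein is degraded on exposure to light, reached 15103, 14202 and 14897 CPM at D20 and 548 and 445 CPM in LD. *per* (chromosome X, 2685580 to 2692780), the partner of *tim* in repressing Clock, was at 1426, 1354 and 1219.9 CPM at D20 and 63.8 and 52.8 CPM in LD. Both genes thus differed by over an order of magnitude, and their log2 fold changes were 4.89 ± 0.16 and 4.52 ± 0.16 (± SE, adjusted p = 0.000197 and 0.000233, edgeR). *cwo*, which encodes a repressor of Clock targets, was at 801, 927 and 779 CPM at D20 and 23.1 and 42.1 CPM in LD, a difference of 4.68 ± 0.32. *vri*, a repressor of *Clk* transcription, was at 1606, 1572 and 1445 CPM against 157 and 119.7 CPM, and *Pdp1*, an activator of *Clk* transcription, at 10064, 13759 and 10751 CPM against 1479 and 1127 CPM, with log2 fold changes of 3.48 ± 0.17 and 3.14 ± 0.22. *Clk* itself (chromosome 3L, 7763233 to 7775603) ran the other way, at 57.1, 53.4 and 61.9 CPM at D20 and 592 and 429 CPM in LD (-3.15 ± 0.18, adjusted p = 0.000486). For *cyc*, which is not rhythmic in flies, the D20 values of 36.3, 38.5 and 35.3 CPM lay between the LD values of 24.9 and 39.6 CPM, with a difference of 0.18 ± 0.28 (adjusted p = 0.641). The 5 genes that rose and *Clk* kept their calls under every alternative fit, with 5 to 6 members higher and 1 lower.

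The constant darkness libraries, measured in the same table and not tested here, lay between LD and D20 for the 5 genes that rose. *tim* was at 2405 and 1981 CPM in DD, *per* at 428 and 397 CPM and *cwo* at 205 and 151 CPM. *Clk* was at 416 and 347 CPM in DD, nearer to its LD than to its D20 level. The 12 libraries of day 30 to 60, scaled within their own table and so not on 1 tested scale with D20, ranged from 286 to 989 CPM for *tim*, from 44.6 to 397 CPM for *per* and from 327 to 611 CPM for *Clk*. For these 3 genes LD fell within the range of the later ages, and D20 fell outside it.

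**Figure D3:**
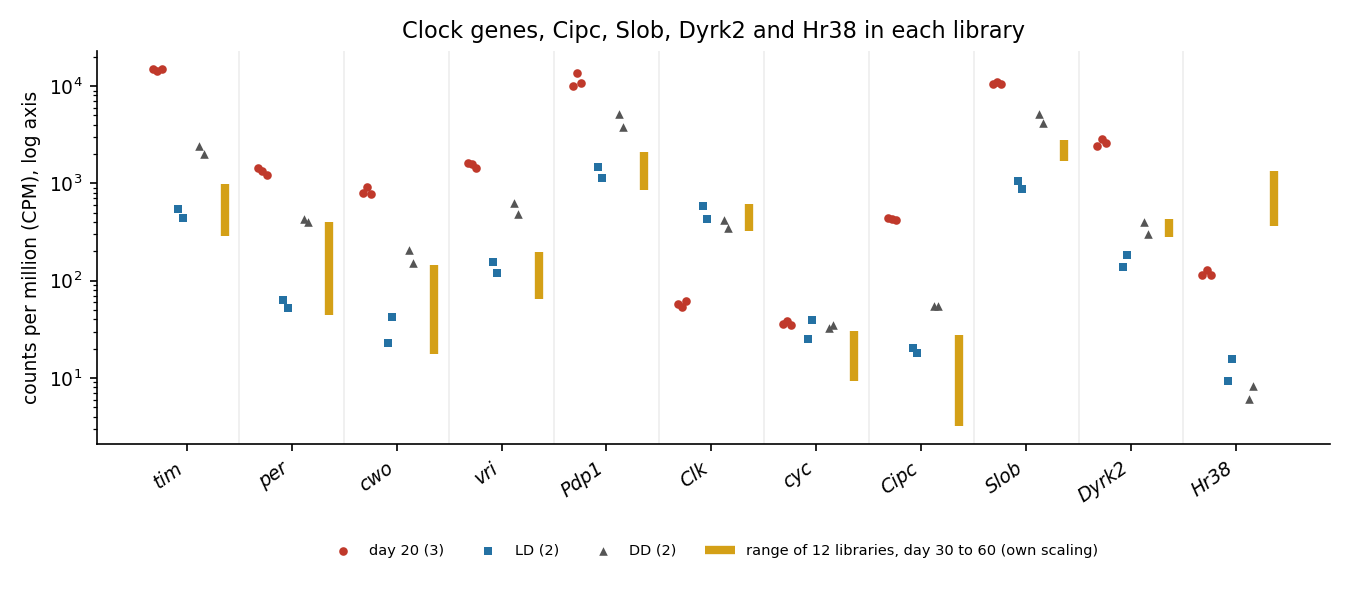
CPM on a log axis for the 7 core clock genes, *Cipc*, *Slob*, *Dyrk2* and *Hr38* in each D20 (circles), LD (squares) and DD (triangles) library; the vertical bar is the range of the 12 day 30 to 60 libraries, scaled within their own table. For *tim* the D20 libraries sit between 14202 and 15103 CPM and the LD libraries at 548 and 445 CPM, and for *Clk* the order is turned.

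The same 10 increases also held *Cipc*, *Slob* and *Dyrk2*. *Cipc*, named after the mammalian CLOCK-interacting pacemaker protein, was at 439, 425 and 425 CPM at D20, 20.1 and 18.0 CPM in LD and 54.5 and 55.0 CPM in DD (4.50 ± 0.14). *Slob*, which encodes a protein that binds the Slowpoke potassium channel, was at 10602, 10891 and 10395 CPM at D20 and 1053 and 872 CPM in LD (3.47 ± 0.14). The kinase gene *Dyrk2* was at 2409, 2829 and 2578 CPM against 138 and 183 CPM (4.02 ± 0.19). The rule that chose these 3 genes demanded groups without overlap and LD libraries within 2-fold of each other. Their separate groups and close LD values were thus set by that choice. Of the 12 genes for clock light input and for the kinases and phosphatases that act on clock proteins, 4 were higher at D20 (2 without any 1 of the D20 libraries), 1 was lower and 7 did not pass (median 0.55). Over all genes tested, 14.9% were called higher and 19.3% lower. In the highest eighth by level, which held 4 of the 12, 47.3% were called higher. *tws*, a regulatory subunit of protein phosphatase 2A, was at 645, 759 and 707 CPM against 120.3 and 148 CPM (2.39 ± 0.15), and *dco*, the casein kinase doubletime, at 459.8, 535 and 483 CPM against 161 and 158 CPM (1.63 ± 0.12). *cry*, the blue light receptor of the clock, was lower, at 18.0, 12.4 and 15.8 CPM against 49.0 and 48.1 CPM (-1.66 ± 0.27). The increases of *nmo* (0.96) and *Tnpo* (0.69) were near the threshold and were not called with sample weights, and the adjusted p was 0.157 for *nmo* without D20 replicate 2 and 0.128 for *Tnpo* without D20 replicate 3.

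The other genes among these 10 increases were *Bdp1*, *Ir41a* and *inaF-C*. *Bdp1*, a subunit of the transcription factor TFIIIB of RNA polymerase III, had 100 to 103 counts in each D20 library but only 1 and 2 in LD, a ratio of 355 with a 95% counting interval of 120.4 to 1732. This interval covers counting error only and leaves out the spread between libraries, which was wide in LD. It was at 74.9 and 40.7 CPM in DD, so the LD libraries stood apart from both other groups for this gene. With sample weights *Bdp1* was not called. *Ir41a*, an ionotropic receptor, was at 254, 315 and 283 CPM against 12.4 and 12.7 CPM (4.49 ± 0.17). *inaF-C*, from the inaF locus, was at 316, 288 and 306 CPM against 19.4 and 26.7 CPM (3.71 ± 0.20). It overlaps other genes of that locus, among them *inaF-B*, and their counts cannot be separated with certainty, since the strand setting of the counting is not given in the sources used here.

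The rhodopsins of the inner photoreceptors were lower at D20, and *Rh3*, *Rh4* and *Rh6* were among the 10 largest decreases chosen by the rule. *Rh3* (chromosome 3R, 20081060 to 20082450), an ultraviolet rhodopsin of R7 cells, was at 26.1, 19.2 and 24.7 CPM at D20 and 1157 and 1131 CPM in LD, a log2 fold change of -5.61 ± 0.16 (adjusted p = 0.000197). *Rh4*, the other ultraviolet rhodopsin of R7 cells, was at 26.3, 15.2 and 20.5 CPM against 946 and 1029.7 CPM (-5.57 ± 0.23). *Rh6*, the green rhodopsin of R8 cells, was at 32.3, 23.3 and 26.4 CPM against 664 and 556 CPM (-4.48 ± 0.19), and *Rh5*, their blue rhodopsin, at 6.08, 7.34 and 11.8 CPM against 57.2 and 82.1 CPM (-3.05 ± 0.37). For all 4 genes both LD libraries lay above every D20 library, as they did in 33.1% of all genes tested. The rule demanded this separation of *Rh3*, *Rh4* and *Rh6*. Genes that specify inner photoreceptors followed. *pros*, which marks R7 and cone cells, was at 176, 222 and 183 CPM against 1223 and 1659 CPM (-2.89 ± 0.18), *salr* at 3.26, 3.29 and 3.21 CPM against 42.8 and 43.8 CPM (-3.73 ± 0.30) and *salm* at 1.95, 3.80 and 3.95 CPM against 20.0 and 41.7 CPM (-3.25 ± 0.53). Of the 8 inner photoreceptor markers tested, 7 were lower at D20, beside 19.3% of all genes, and *ss* did not pass, with a median of -3.49. Their summed level was 274, 297 and 276 CPM at D20, 4145 and 4546 CPM in LD and 5109 and 6287 CPM in DD. In the day 30 to 60 libraries it ranged from 208 to 409 CPM on their own scaling, so that LD and DD stood apart from the D20 libraries and from the later ages. In RNA from enriched nuclei, fewer nuclei of a type and less RNA per nucleus cannot be told apart. *Rh2*, the rhodopsin of the ocelli, was at 5.21, 6.58 and 9.37 CPM at D20 and 2.87 and 22.8 CPM in LD, and was not called.

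**Figure D4:**
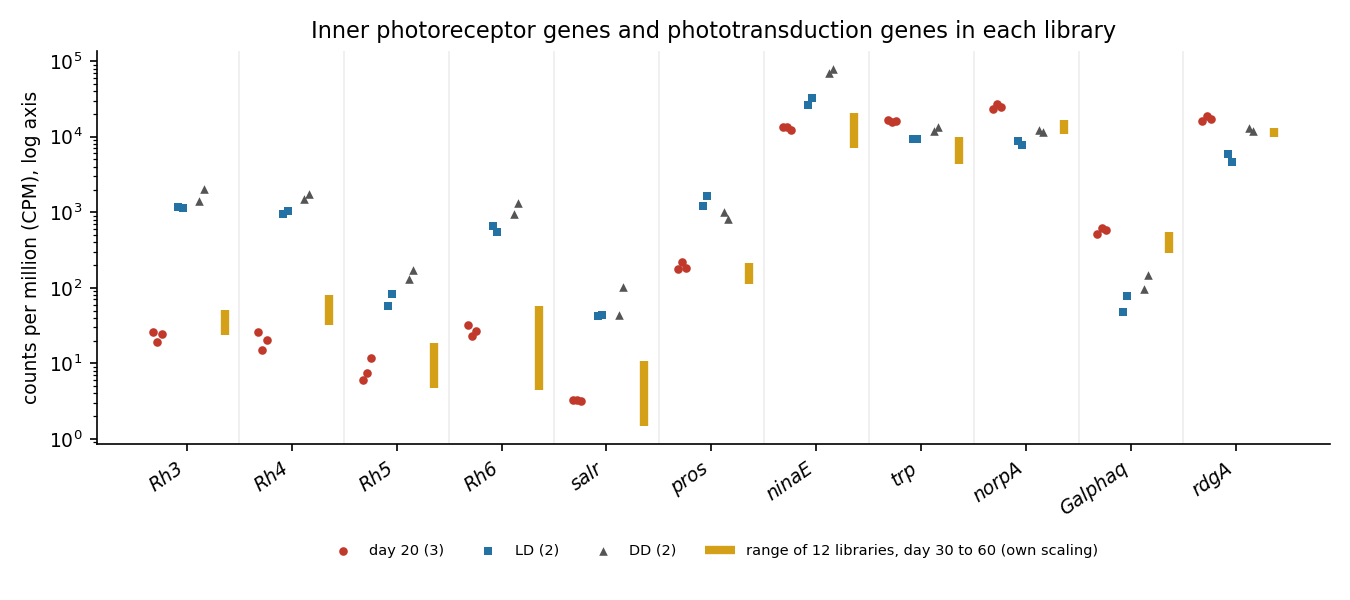
CPM on a log axis for inner photoreceptor genes (*Rh3*, *Rh4*, *Rh5*, *Rh6*, *salr*, *pros*) and for phototransduction genes (*ninaE*, *trp*, *norpA*, *Galphaq*, *rdgA*) in each D20 (circles), LD (squares) and DD (triangles) library; the vertical bar is the range of the 12 day 30 to 60 libraries, scaled within their own table. The 4 inner rhodopsins lie lower at D20 than in LD and DD, whereas *norpA*, *Galphaq* and *rdgA* lie higher at D20 than in LD.

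Markers of other cells in the head also differed between the groups, and their counts stand beside 19.3% of all genes called lower and 14.9% called higher. Of 9 cone and pigment cell markers tested, 5 were lower at D20 and 1 was higher (median -1.97), with the lens protein genes *Crys* at 2.61, 2.28 and 1.97 CPM against 30.2 and 56.4 CPM (-4.24 ± 0.42) and *Cpr72Ec* at 15.8, 14.2 and 13.6 CPM against 295 and 362 CPM (-4.50 ± 0.17). The 1 higher marker was *w* (0.62, adjusted p = 0.0150, lost with sample weights), and the transgene of these flies carries a copy of that gene. The summed level of this list was 1319, 1125 and 1207 CPM at D20 and 1457 and 1507 CPM in LD, most of it from *w* at D20 (1235, 1028 and 1111 CPM, against 778 and 684 CPM in LD). Without *w* the list summed to 84.0, 97.0 and 95.9 CPM at D20, 679 and 823 CPM in LD and 608 and 706 CPM in DD. Of 12 markers of lamina and brain neurons, 9 were lower and none was higher (median -1.82), and their summed level was 486, 546 and 526 CPM at D20 and 1252 and 1908 CPM in LD. They included the acetylcholine transporter gene *VAChT* at 46.7, 50.6 and 53.5 CPM against 159 and 206 CPM (-1.86 ± 0.17), the GABA receptor gene *Rdl* (-2.34) and the neuropeptide gene *Dh31* at 4.78, 7.34 and 3.21 CPM against 35.7 and 16.1 CPM. When 1 D20 library was left out, the adjusted p reached 0.0777 for *w* without D20 replicate 3 and 0.0936 for *Dh31* without D20 replicate 1. Of 11 glial markers, 4 were lower (1 without any 1 of the D20 libraries) and none was higher (summed 406, 415 and 433 CPM against 596 and 902 CPM). The defining glial gene *repo* was at 8.90, 7.85 and 8.39 CPM at D20, at 0 in LD replicate 1 and at 20.2 CPM in LD replicate 2. Of 8 muscle markers 4 were lower and 1 higher (summed 3531, 3703 and 3474 CPM against 3302 and 2620.2 CPM), and of 10 fat body and hemocyte markers 6 were lower and none was higher (summed 2103, 2039 and 2014 CPM against 2632 and 3484 CPM). Testis and accessory gland markers did not pass the filter and summed to 1.52 to 4.99 CPM at D20. Without 1 D20 library, 3 of the cone and pigment cell markers, 5 to 6 of the neuron markers, 4 of the muscle markers and 4 of the fat body and hemocyte markers were lower. Another 4 neuron, 4 muscle, 2 glial, 2 fat body and hemocyte and 2 cone and pigment cell markers passed the filter but went untested. Each was at 0 in an LD library, so members undetected there were removed from these counts. The part of these cell types in the other differences was not tested.

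The defining genes of outer photoreceptors, the labelled cell type, were abundant in both groups. Of 12 markers, 7 were higher at D20, 4 were lower and 1 did not pass (median 0.90), with a summed level of 105377, 105177 and 103671 CPM at D20 and 75666 and 82265 CPM in LD. The list thus did not move in 1 direction. In the highest eighth by level, which held 11 of the 12, 47.3% of all genes were called higher and 13.1% lower (median 0.48). *ninaE* (chromosome 3R, 19886255 to 19888206), which encodes Rhodopsin 1 and whose promoter drives the tag, was at 13431, 13348 and 12286 CPM at D20, 26458 and 32357 CPM in LD and 69727 and 79689 CPM in DD, lower at D20 by a log2 fold change of -1.18 ± 0.13 (adjusted p = 0.00188).

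The steps from rhodopsin to the channels were mostly higher at D20. Of 10 genes tested, 7 were higher, 2 were lower and 1 did not pass, with a median of 0.95, beside 0.48 for the highest eighth of all genes by level. That eighth held 7 of the 10, and 47.3% of all genes in it were called higher and 13.1% lower. *Galphaq*, the G protein subunit activated by rhodopsin, was at 519.7, 621 and 589.7 CPM at D20 and 47.2 and 77.3 CPM in LD (3.21 ± 0.26, adjusted p = 0.000912). *norpA*, the phospholipase C that Gq activates, was at 23067, 27255 and 24621 CPM against 8851 and 7798 CPM (1.59 ± 0.14). The channel genes *trpl* and *trp* showed smaller differences, with 14906, 13004 and 13927 CPM against 6120.4 and 6479 CPM for *trpl* (1.15 ± 0.12) and 16519.8, 15663 and 16123 CPM against 9279 and 9413 CPM for *trp* (0.78 ± 0.10). *inaF-B*, needed for TRP function, was at 264, 207 and 232 CPM against 30.8 and 59.9 CPM (2.37 ± 0.32), a value shared with the overlapping inaF genes. *Gbeta76C* (0.95) and *Ggamma30A* (0.95), the other Gq subunits, were higher as well. The scaffold gene *inaD* was lower, at 1109, 1145 and 1173 CPM against 1585 and 1464 CPM (-0.42 ± 0.10, adjusted p = 0.0240), a call that was lost with sample weights and whose adjusted p was 0.0988 for *inaD* without D20 replicate 3. *inaE*, a diacylglycerol lipase, had 184, 181 and 177 CPM against 350.2 and 199.9 CPM and was not called.

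Genes that end the light response moved in both directions. The arrestins, which bind activated rhodopsin, were lower, with *Arr1* at 3548, 3523 and 3707 CPM against 5640.4 and 6970.2 CPM (-0.81 ± 0.13) and *Arr2* at 4955, 4548 and 4834 CPM against 5901 and 6944 CPM (-0.43 ± 0.12, adjusted p = 0.0376). *ninaC*, the myosin III kinase, was higher at 11294, 11148 and 11427 CPM against 3936 and 3707 CPM (1.56 ± 0.11), as were the rhodopsin phosphatase gene *rdgC* (1.35), the kinase gene *Gprk1* (1.33), the sodium-calcium exchanger gene *Calx* (1.25) and *stops* (1.25). In all, 6 of 11 were higher, 2 were lower and 3 did not pass, and the median of 0.47 fell to 0.00 on library size alone. In the highest eighth by level, which held 10 of the 11, 47.3% of all genes were called higher and 13.1% lower. The median there was 0.48, so the list was near that background. The calls of *Arr2* and of the eye protein kinase C gene *inaC* (0.46) were not kept with sample weights, nor without 1 D20 library, with an adjusted p of 0.142 for *Arr2* without D20 replicate 3 and 0.161 for *inaC* without D20 replicate 3. In the phosphoinositide cycle, 3 of 9 genes were higher and 1 was lower, beside 14.9% and 19.3% of all genes. The highest eighth by level held 5 of these 9. *rdgA*, a diacylglycerol kinase, was at 16313, 19085 and 16999 CPM against 5901 and 4624 CPM (1.73 ± 0.16), and *PIP5K59B* (1.02) and *rdgB* (0.59) were higher too, although *rdgB* was not called with sample weights and its adjusted p was 0.0584 for *rdgB* without D20 replicate 3. *laza*, a lipid phosphatase that opposes *rdgA*, was at 13.9, 8.86 and 9.13 CPM against 69.8 and 90.1 CPM (-2.91 ± 0.30).

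Of 9 genes for rhodopsin maturation and the chromophore, 5 were lower, beside 19.3% of all genes, 2 were higher and 2 were not called (median -0.98). Without any 1 of the D20 libraries 3 were lower. *pinta*, a retinoid-binding protein of pigment cells, was at 2.82, 1.27 and 1.97 CPM at D20 and 16.4 and 27.2 CPM in LD (-3.42 ± 0.54), and *Pdh*, a retinol dehydrogenase of pigment cells, at 40.6, 31.9 and 42.9 CPM against 143 and 232 CPM (-2.28 ± 0.26). The part of pigment cells in these values was not tested. *ninaA*, the cyclophilin that chaperones Rhodopsin 1, was at 47.1, 38.2 and 43.7 CPM against 207 and 81.1 CPM (-1.74 ± 0.39), where the LD libraries differed from each other by more than 2-fold and the adjusted p was 0.0844 for *ninaA* without D20 replicate 2. The 2 higher genes were *Cnx99A*, a calnexin needed for Rhodopsin 1 maturation, at 2022, 1874 and 1947 CPM against 599.9 and 394 CPM (1.97 ± 0.20), and *ninaB*, the carotenoid oxygenase, at 171, 158 and 165 CPM against 53.0 and 54.9 CPM (1.61 ± 0.14).

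Histamine is the transmitter of photoreceptors, and 4 of 7 genes for its use were higher at D20 (2 without any 1 of the D20 libraries), 1 was lower and 2 did not pass. In the highest eighth by level, which held 4 of the 7, 47.3% of all genes were called higher. *CarT*, which imports the histamine precursor carcinine, was at 548, 506 and 549.5 CPM at D20 and 143 and 147 CPM in LD (1.88 ± 0.11). *lovit*, which loads histamine into vesicles, was at 1809, 2289 and 2054 CPM against 744 and 721 CPM (1.49 ± 0.14). The increases of *Hdc*, which makes histamine (0.67), and of *t*, which recycles it (0.61), were smaller and were not called with sample weights, and the adjusted p was 0.0656 for *Hdc* without D20 replicate 1 and 0.131 for *t* without D20 replicate 3. The lower gene, *Vmat* (-2.39 ± 0.24), transports monoamines and is also among the markers of brain neurons. Of 21 genes for synaptic vesicle release, 10 were higher, 2 were lower and 9 did not pass (median 0.51, and 0.06 on library size alone). These genes are abundant, with 17 of them in the highest eighth by level, where 47.3% of all genes were called higher, and their share was near that background. *lap*, a clathrin adaptor, was at 1224, 1344 and 1298 CPM against 274 and 334 CPM (2.08 ± 0.14), *cac*, the presynaptic calcium channel, at 4412, 5201 and 4837 CPM against 1829 and 1503 CPM (1.53 ± 0.14), and the active zone gene *brp* at 4589, 4883 and 4522 CPM against 2669 and 1948 CPM (1.01 ± 0.16). *Snap25* (1.48), *Csp* (1.15) and *stj* (1.31) were also higher. The 2 lower genes were *VGlut* (-2.14), the glutamate transporter of other neurons, and *Synj* (-1.13).

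Genes of the rhabdomere, the light-sensing membrane stack, and of cell polarity were higher in 8 of 15, lower in 1 and not called in 6 (median 0.65). Of the 15, 10 were in the highest eighth by level, and the list's share called higher was near the 47.3% of all genes there. *crb*, which sets the stalk membrane, was at 3017, 2795 and 2995 CPM at D20 and 515 and 444 CPM in LD (2.61 ± 0.13, adjusted p = 0.000350), and *Moe*, the actin linker of the rhabdomere base, at 1844, 2085 and 1900.2 CPM against 315 and 351 CPM (2.55 ± 0.13). Both lay above every DD value, which were 957 and 1042 CPM for *crb* and 969 and 862 CPM for *Moe*. *prom* (1.73), *chp* (1.11), *eys* (1.01), *baz* (1.17), *cno* (1.00) and *sdt* (0.65) were higher too, and the E-cadherin gene *shg* was lower (-1.15). The call of *sdt* was lost with sample weights, and that of *shg* had an adjusted p of 0.0533 for *shg* without D20 replicate 2.

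Of 13 voltage-gated potassium channel genes and their regulators, 7 were higher, 1 was lower and 5 did not pass (median 0.93), with 9 of the 13 in the highest eighth by level and a share near the 47.3% called higher there. Besides *Slob*, they included *slo*, the calcium-activated channel, at 4893, 5945 and 5249 CPM against 2168 and 1706 CPM (1.47 ± 0.16), the Shaker subunit gene *Hk* (1.42), *KCNQ* (1.17), *qvr* (1.08), *Shal* (0.93) and *Shab* (0.84). *Shaw* was lower, at 14.9 to 17.6 CPM against 46.8 and 99.8 CPM. None of 7 sodium channel and pump genes was higher and 3 were lower, with *para*, the voltage-gated sodium channel of spiking neurons, at 168, 206 and 183 CPM against 835 and 879 CPM (-2.21 ± 0.13), *nrv1* at -2.23 and *NKCC* at -2.05. Of 13 calcium genes, 4 were higher and 4 lower. The sodium and calcium counts stand beside 14.9% of all genes called higher and 19.3% called lower. *CaMKII* was at 903, 1117 and 1003 CPM against 243 and 299 CPM (1.90 ± 0.16), *Orai* (1.56), *Ca-alpha1D* (1.51) and the inositol trisphosphate receptor gene *Itpr* (0.63) were higher, and *RyR* (-0.76) and *Cbp53E* (at 17.4, 11.6 and 17.5 CPM against 32.8 and 76.5 CPM) were among those lower, of which none or 1 was called without 1 D20 library. With sample weights *Shal*, *Itpr* and *RyR* were not called, and the adjusted p reached 0.0832 for *NKCC* without D20 replicate 3, 0.0859 for *Itpr* without D20 replicate 1, 0.126 for *RyR* without D20 replicate 2 and 0.0979 for *Cbp53E* without D20 replicate 2.

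Ribosomal protein genes were lower at D20 as a group. Of 80 cytosolic ribosomal protein genes tested, 61 were lower, beside 19.3% of all genes, none was higher and 19 did not pass, with a median of -1.65 against -0.14 for all genes. Only 4 of the 80 were in the upper 2 eighths by level. In eighths 1 (lowest) to 6, 1.30 to 18.9% of all genes were called higher and 16.0 to 25% lower. Another 4 genes of the list passed the expression filter but were at 0 in an LD library and were not tested. The summed level of the list was 2164, 1843 and 1967 CPM at D20, 5944 and 7853 CPM in LD and 6175 and 7828 CPM in DD, so each LD and DD library lay above each D20 library. *RpL23* was at 10.6, 8.86 and 13.3 CPM at D20 and 116 and 111 CPM in LD (-3.37 ± 0.24), and *RpS6* at 41.9, 35.5 and 38.2 CPM against 315 and 248 CPM (-2.87 ± 0.17). *RpL32* (-2.53) and *RpLP0* (-2.52) showed the same direction. These genes are short, with a median exonic length of 921.5 bp against 2922 bp for all tested genes. By exonic length, the shortest eighth had a median of -0.69, against values from -0.24 to 0.03 in the other eighths. With gene length in the fit, an alternative added after the data were seen, 52 of these genes were lower, with a median of -1.47. Without D20 replicate 3 the count was 40, and without LD replicate 2 67 were lower and 4 higher.

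Of 54 nuclear-encoded oxidative phosphorylation genes tested, 14 were lower, a share near the 19.3% of all genes, 2 were higher and 38 did not pass, with a median of -0.72. *ATPsynC*, a subunit of the ATP synthase ring, was at 100.7, 112 and 99.6 CPM at D20 and 379 and 384 CPM in LD (-1.87 ± 0.12), and *COX5A*, of cytochrome oxidase, at 15.2, 15.7 and 12.8 CPM against 65.5 and 41.9 CPM (-1.88 ± 0.29). *COX7C* had the most negative fold change of the list (-2.76 ± 0.63), but its LD values of 91.9 and 20.4 CPM were far apart and its adjusted p was 0.0897 for *COX7C* without D20 replicate 2. The higher genes were *ND-51L1* (1.27) and *UQCR-11* (0.92), which were not called with sample weights, and whose adjusted p was 0.203 for *ND-51L1* without D20 replicate 2 and 0.107 for *UQCR-11* without D20 replicate 2. Without D20 replicate 3, 4 genes of the list were lower and 0 higher. Another 13 genes of the list passed the expression filter but were at 0 in an LD library and were not tested. The same held for 33 of the 47 mitochondrial ribosomal protein genes past that filter, and of the 14 tested, 2 were lower and none was higher, counts from which members low in LD were thus removed.

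Genes induced by neuronal activity and stress held calls in both directions, beside 14.9% of all genes called higher and 19.3% called lower. Of 10 activity-induced genes, 3 were higher and 2 lower. *Hr38*, a nuclear receptor gene, was at 114, 129 and 115 CPM at D20, 9.24 and 15.7 CPM in LD and 6.07 and 8.22 CPM in DD (3.26 ± 0.29), and the day 30 to 60 libraries ranged from 369 to 1335 CPM on their own scaling. *puc*, a target and inhibitor of JNK signalling, was at 793, 1101 and 844 CPM against 125 and 246 CPM (2.30 ± 0.34), and *kay*, the fly Fos gene, at 384, 419.6 and 358 CPM against 90.3 and 211 CPM (1.36 ± 0.36). *CrebB* (-1.16) and *CrebA* (-0.54) were lower. Of 14 chaperone and heat shock genes, 4 were higher and 1 was lower, with *Hsp83* at 428, 445 and 455 CPM against 199.7 and 241 CPM (1.00 ± 0.13), and *stv* (0.58) and *Hsf* (0.81) higher. *Hsp70Bb* (1.97) and *Hsp70Ba* (-2.48) differed in direction, but they are near-identical copies and the counting may have split their reads. With sample weights *CrebA*, *stv*, *Hsf* and *Hsp70Bb* were not called, and the adjusted p reached 0.121 for *kay* without D20 replicate 2, 0.154 for *CrebA* without D20 replicate 3, 0.0676 for *stv* without D20 replicate 1, 0.131 for *Hsf* without D20 replicate 3 and 0.0620 for *Hsp70Ba* without D20 replicate 2. Of 13 antioxidant genes, 2 were higher and 2 lower. Another 4 antioxidant and 3 chaperone genes passed the expression filter but were at 0 in an LD library and were not tested. The subunits of glutamate-cysteine ligase, which starts glutathione synthesis, moved apart, with the modifier gene *Gclm* at 169.8, 169 and 163 CPM against 18.6 and 14.7 CPM (3.33 ± 0.19) and the catalytic gene *Gclc* at 49.7, 52.2 and 48.3 CPM against 149 and 111 CPM (-1.38 ± 0.18).

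**Figure D5:**
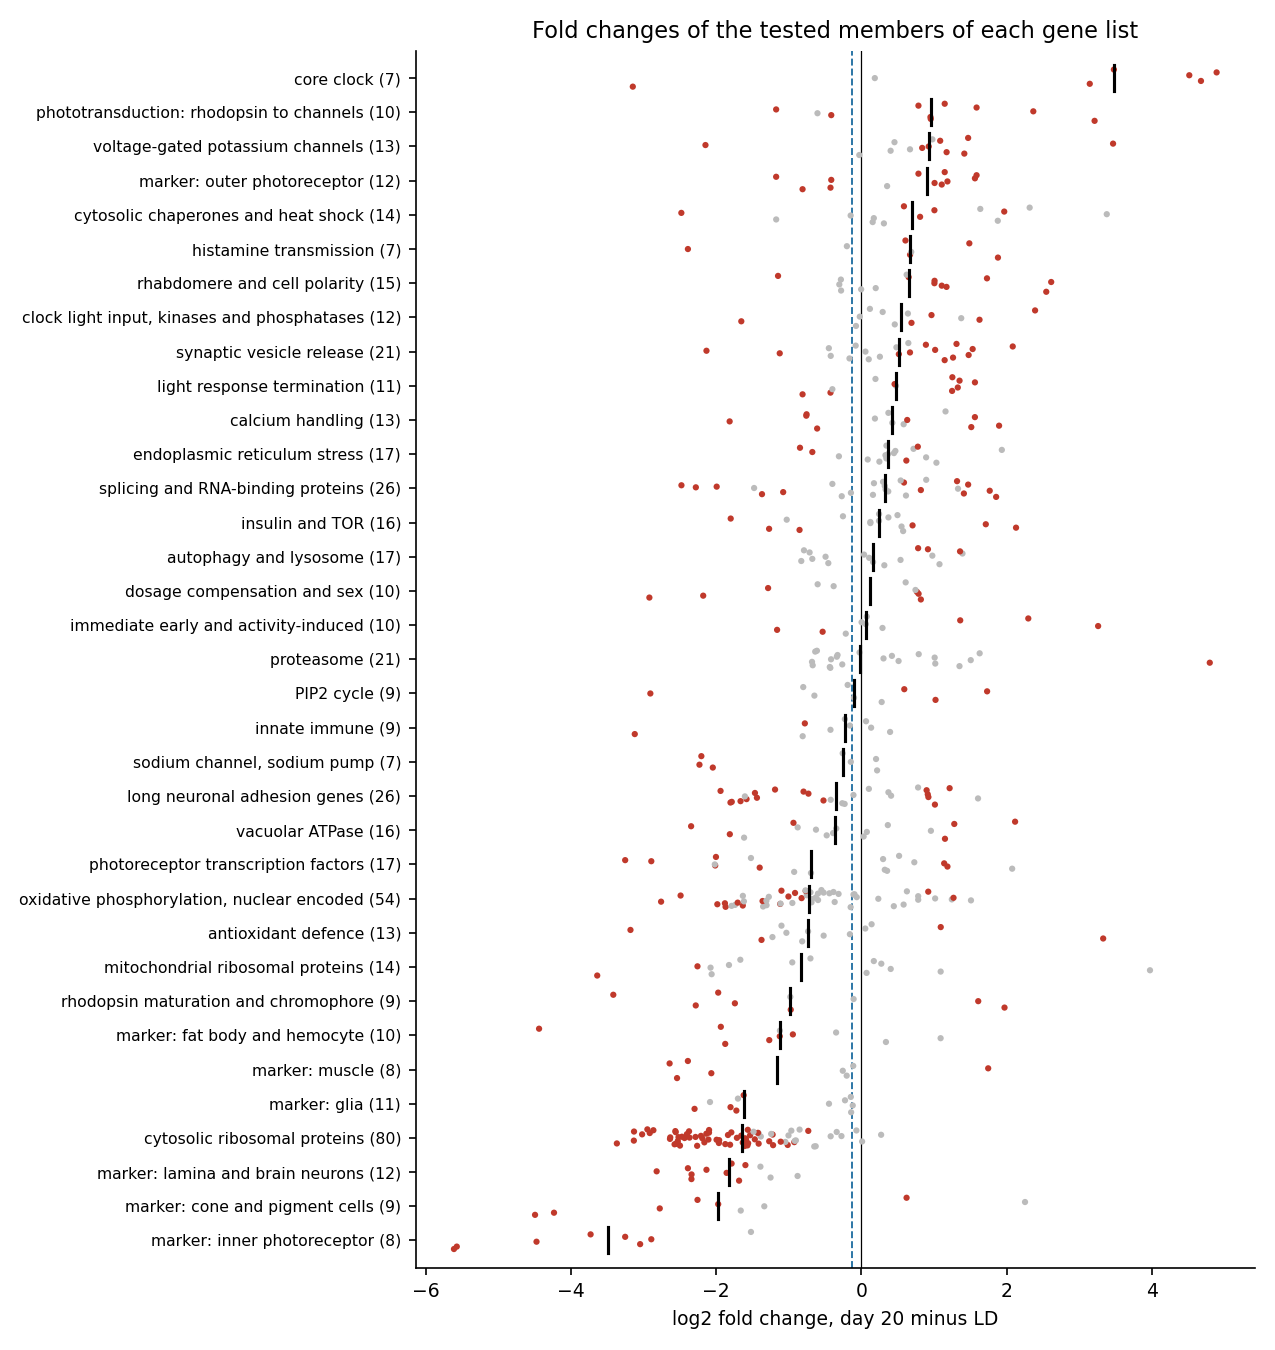
Log2 fold change (D20 minus LD) of each tested member of the gene lists, with the number of members tested in brackets; red points were called at an adjusted p under 0.05, grey points were not, the black bar is the median of the list and the dashed line the median of all genes (-0.14). The core clock has the highest median (3.48) and the inner photoreceptor markers the lowest (-3.49).

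The remaining lists held calls in both directions or few calls, beside 14.9% of all genes called higher and 19.3% called lower. Of 17 photoreceptor transcription factor genes, 2 were higher and 5 lower. The higher ones were *gl* (1.18 ± 0.12) and *oc* (1.14 ± 0.23), which act in photoreceptor identity and rhodopsin choice, and the lower ones included *svp* (at 11.9, 9.88 and 9.87 CPM against 44.0 and 40.8 CPM), *hth* (-2.01) and *eya* (-1.40) beside *salm* and *pros*. Of 26 splicing and RNA-binding protein genes, 7 were higher and 5 lower, with the SR protein genes *B52* (1.85 ± 0.14) and *SC35* (at 49.9, 49.9 and 42.7 CPM against 8.42 and 19.5 CPM) among those higher, and the neuronal *fne* (-2.48 ± 0.17), *bru2* (-2.28) and *bru3* (-1.99) lower. Of 26 long neuronal adhesion genes, 5 were higher and 11 lower, among them *Dscam2* (at 72.5, 77.7 and 62.9 CPM against 148 and 348 CPM), *Dscam3* (-1.79) and *Ten-m* (-1.47). The highest eighth by level held 11 of the 26 splicing genes, 10 of the 26 adhesion genes and 6 of the 17 transcription factor genes. In that eighth 47.3% of all genes were called higher and 13.1% lower. Insulin and TOR genes had 3 higher and 3 lower of 16, with *Pdk1* (2.13) among those higher and *foxo* (-1.80), *Lk6* (-1.27) and *InR* (-0.85) lower. Autophagy genes had 3 higher of 17, namely *Mitf* (1.36), *ref(2)P* (0.92) and *spin* (0.78). Endoplasmic reticulum stress genes had 2 higher and 2 lower of 17, vacuolar ATPase genes 3 and 3 of 16, innate immune genes none and 2 of 9, dosage compensation and sex genes 3 and 3 of 10, and proteasome genes 1 and none of 21. Without 1 D20 library fewer members were called in most of these lists, with 3 to 4 higher for splicing, 2 to 3 higher and 7 lower for adhesion, 1 to 2 higher for insulin and TOR, 1 for autophagy, none to 1 for endoplasmic reticulum stress and none for the immune and proteasome lists. The proteasome gene called higher was *Prosbeta4*, at 2.82, 3.29 and 4.44 CPM against 0.154 and 0.0809 CPM. Among members past the expression filter, 12 proteasome, 5 immune and 3 each of the autophagy, endoplasmic reticulum stress and vacuolar ATPase genes were not tested. They were at 0 in an LD library, as was 1 each in the insulin and adhesion lists. With sample weights *InR*, *ref(2)P*, *spin* and *Prosbeta4* were not called, and without 1 D20 library the adjusted p reached 0.0542 for *oc* without D20 replicate 2, 0.0987 for *eya* without D20 replicate 3, 0.100 for *SC35* without D20 replicate 2, 0.0572 for *Dscam2* without D20 replicate 2, 0.0557 for *InR* without D20 replicate 1, 0.138 for *ref(2)P* without D20 replicate 3, 0.0737 for *spin* without D20 replicate 3 and 0.128 for *Prosbeta4* without D20 replicate 3. On library size alone the median of the splicing, insulin, autophagy, calcium, endoplasmic reticulum stress, dosage compensation and activity-induced lists changed sign.

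Among the 10 largest decreases chosen by the rule, some rested on very few D20 counts. *scpr-B*, *to*, *CG14687* and *AstC-R1* had 1 to 6 counts in each D20 library and over 250 in each LD library. Their ratios of D20 to LD were 0.0291 (95% counting interval 0.0106 to 0.0636) for *scpr-B*, 0.0468 (0.0241 to 0.0822) for *to*, the clock-regulated gene takeout, 0.0543 (0.0259 to 0.100) for *CG14687* and 0.0615 (0.0293 to 0.114) for the allatostatin receptor gene *AstC-R1*. The intervals cover counting error only, and the call of *AstC-R1* had an adjusted p of 0.0688 for *AstC-R1* without D20 replicate 2. In DD *to* was at 1.20 and 0 CPM and *CG14687* at 0.0632 and 0.833 CPM, so here LD stood apart from both D20 and DD. *Achl* was at 45.2, 43.3 and 46.4 CPM at D20, 1141 and 819 CPM in LD and 1426 and 1597 CPM in DD (-4.45 ± 0.18).

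A further 2229 genes passed the expression filter but were left out because at least 1 library had no count. Besides the genes at 0 in LD replicate 1 given above, they included 428 at 0 in LD replicate 2, and 307 were at 0 in both. *CG11449* had 372, 285 and 346 counts at D20, none in either LD library and 220 and 187 in DD. *Dhc62B*, a dynein heavy chain gene, had 258, 192 and 248 counts at D20, none in LD, and 96 and 0 in DD. In other genes the LD libraries disagreed. *bnl*, an FGF ligand gene, had 0 counts in LD replicate 1 and 585 in replicate 2, *ple*, the tyrosine hydroxylase gene, 0 and 965, and *Sf3b3*, a core splicing factor gene, 0 and 829. Of 7742 genes with at least 50 counts in 1 or both LD libraries, 2152 were at 0 in 1 of them, so a count of 0 in LD sets no upper limit on the level and no fold change is given for any of these genes.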

How the data were processed

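The authors deposited raw read counts per gene with no normalization, and the labels and the submitters' processing notes name Trimmomatic, STAR, SAMtools and DESeq2 and the dm6 (BDGP6) genome. How strand and duplicate reads were handled and which annotation was used are not given in the sources used here, so counts of overlapping genes are uncertain and duplicates may be counted more than once. Of 13929 identifiers, 13866 matched the Ensembl annotation (release 115) of BDGP6.

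D20 was compared with LD by the quasi-likelihood F-test of edgeR 4.0.16 (R 4.3.3, two-sided, TMM, default filter with minimum count 10 and minimum total 15, and at least 1 count in all 5 libraries), and genes were called at a Benjamini-Hochberg adjusted p under 0.05. Standard errors were derived from the log2 fold change and its F value. DD was placed on the same scale through the TMM reference library, and the day 30 to 60 table was scaled separately. The named genes were the 10 largest increases and decreases among calls with a mean of at least 50 counts, no overlap between groups and LD libraries within 2-fold of each other, with the core clock genes and examples of list members. Members and gene lists were chosen with earlier results of these data known. Lists were described by counts and medians with no test. Replicates were separate pools of flies. The edgeR p-values and standard errors rest on 1 spread between pools assumed for both groups, although LD varied more than D20. The alternatives were DESeq2 1.42.0, limma voom 3.58.1 with sample weights, other scalings, filters and depths, the replicate block, DD in the fit and each library left out. The fit was also run on simulated data, and no result given here rests on that run.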

Additional observations from a re-analysis of the deposited data

How the results depend on the processing

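No call shared with an alternative changed direction under any of them. The 1892 calls became 738 with the replicate number as a block (403 higher, 335 lower), 911 to 997 without 1 D20 library (419 to 463 higher, 492 to 534 lower) and 4517 to 5375 without 1 LD library (2169 to 2557 higher, 2348 to 2818 lower). Deviations of same-numbered libraries from their group means correlated at -0.0198 and -0.0139. The 2 LD libraries deviate as mirror images of each other, so these values cannot decide whether the numbers pair libraries. The numbers of genes higher and lower were 460 and 1849 on library size alone, 1275 and 692 with no filter, and 526 and 895 with voom. The other counts were 1876 with a robust spread, 1902 with RLE factors, 1854 without the demand for counts in all 5 libraries, 1912 with at least 10 counts in each, 2041 at equal depth, 1912 with DD in the fit, 2247 with DESeq2, 1817 over 1.5-fold and 1848 with length offsets (chosen after seeing the data). The share of calls higher at D20 was 64.8% with no filter and 57.8% without that demand, since genes at 0 in LD replicate 1 then enter. The lowest correlation between replicates over all genes was 0.967 in D20 and 0.703 in LD, and the LD value was 0.778 at equal depth and 0.728 with a prior count of 0.5. Of the named genes, *cyc* changed sign on library size alone (-0.29) and lay between -0.079 and 0.58 without 1 LD library, *inaC* changed sign on library size alone (-0.000897), and *Rh2* lay between -1.67 and 1.31 without 1 LD library. In the lowest eighth of genes by level 74.2% were over 2-fold apart between the LD libraries, against 1.73% in the highest, so values of low genes in LD are the least precise.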
